A study of Mus musculus with 23 samples.

Results

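Distal regions open in every library are stretches of accessible chromatin that had an ATAC-seq peak in each of 23 libraries of striatal microglia and lay more than 1 kb from both ends of every protein-coding gene. ATAC-seq uses a transposase that inserts into DNA free of nucleosomes, so a peak marks a site that is open in the cells that were sorted. In each library the same number of peaks with the best −log10 p was kept on chromosomes 1 to 19 and X, just under the 33949 of the shortest list. Overlapping kept peaks of all libraries were merged into 71467 intervals, and 15962 of these had a peak in all 23 libraries. Of those, 7325 were distal by this rule (45.9% of the regions open in every library and 13.1% of all 55798 distal intervals). The members were thus chosen by a measured value, the −log10 p that put a peak into every list, so their level of openness is given as a description.

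The study compared mice born after an immune activation of the mother (MIA) with control offspring (CON), 18 h after an intraperitoneal injection of lipopolysaccharide (LPS, a bacterial cell wall component that activates Toll-like receptor 4) at 4500 endotoxin units per g of body weight, or of saline (SAL). The groups were MIA_LPS (n = 5), CON_LPS (n = 7), MIA_SAL (n = 6) and CON_SAL (n = 5). All libraries came from male mice aged 8 to 10 weeks, and the sorting gate in all groups took live cells with CD11b, low CD45 and P2RY12 from papain-digested tissue. The sources used here give neither the agent of the immune activation nor the strain. Some libraries share a number in their ID label whose meaning is not given. Since the labels do not tie each library to its own animal, a p-value speaks of the spread among libraries, which may be technical.

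Distal open regions include enhancers, the elements at which lineage factors and signal-dependent factors meet. In microglia, factors of the ETS family such as PU.1 hold a set of such elements open, and factors downstream of Toll-like receptors, among them NF-kB, AP-1 and IRF proteins, are known to act on them after stimulation. The deposited lists hold no gene expression, so a gene name below marks the nearest gene end within 100 kb, the gene body or, for gene lists, a gene within 20 kb, and does not show that the region controls it.

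Graded openness was measured as the percentile of a region's fold enrichment at the summit among the kept peaks of its own library. A percentile of 100 is the most open peak of a library. Since it is a rank, a change shared by all regions of a library could not be seen. In sorted bulk cells, fewer cells with an open region and less openness per cell cannot be told apart.

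The 7325 regions were short and mostly within genes. In gene bodies lay 4362 (59.5%), and 2963 (40.5%) lay between genes. Their median length was 654 bp, against 935 bp for the 8637 regions at gene ends that were also open in every library. The median distance from the nearest end of a coding gene was 13629 bp, and 512 regions had no such end within 100 kb. The rule used gene ends, not transcription starts inside genes. By at least 1 base, 783 regions (10.7%) overlapped a RefSeq start window of a coding gene and 351 (4.79%) that of a long noncoding RNA. Within 100 bp of the 1 kb threshold, 89 members had a median percentile of 60.3 and 81 gene-end regions one of 59.6.

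Of 21631 coding genes, 5785 had a member in the body or within 20 kb, and 178 genes had 5 or more. Marker lists showed which genes held such regions. Members lay at 19 of 25 genes of homeostatic microglia, among them P2ry12, P2ry13, Tmem119, Cx3cr1 and Csf1r. The same count was 2 of 12 for border-associated macrophages (Mrc1 and Stab1), 3 of 16 for monocytes and neutrophils, 2 of 20 for neurons, 3 of 10 each for astrocytes, oligodendrocyte lineage and endothelial cells, and 4 of 12 for lymphocytes.

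The libraries held between 33949 and 68312 peaks before the lists were shortened, and the number of reads is unknown. Members made up 22.2% to 25.0% of each shortened list, and their median percentile ranged from 63.3 to 68.4 over the 23 libraries. Across pairs of libraries, the median correlation of the members' percentiles was 0.757 for 56 pairs from 1 group, 0.759 for 65 pairs that differed in MIA against CON alone, and 0.675 for 132 pairs of an LPS and a saline library. The libraries of a pair shared the regions, and each library enters many pairs, so these values are a description.

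DNA letters were available for members that overlapped the window of an annotated transcription start or a microRNA hairpin, from RefSeq for GRCm38.p6. They are shown here for start windows of members that changed the most after LPS, chosen after their values were seen. Each is the part of the 300 bases from 250 before to 50 after the start that lies inside the region, 5′ to 3′ on the gene's strand, and capitals mark the words found by the searches described further on. The first 2 belong to regions that were more open after LPS. Lmna encodes lamins A and C of the nuclear envelope, and Rasgrp2 an activator of the small GTPase Rap1. The other 3 belong to regions that were less open after LPS. Syk is a tyrosine kinase downstream of immune receptors, Psd4 an exchange factor for the GTPase Arf6, and Fam171a1 a membrane protein.
Lmna, 3:88503303-88503602, minus strand: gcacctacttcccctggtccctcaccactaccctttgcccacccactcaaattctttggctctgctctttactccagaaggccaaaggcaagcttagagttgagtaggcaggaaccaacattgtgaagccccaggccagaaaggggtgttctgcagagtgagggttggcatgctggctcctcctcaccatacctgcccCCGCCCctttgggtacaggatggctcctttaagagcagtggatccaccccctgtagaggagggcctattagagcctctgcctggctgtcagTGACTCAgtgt
Rasgrp2, 19:6401455-6401754, plus strand: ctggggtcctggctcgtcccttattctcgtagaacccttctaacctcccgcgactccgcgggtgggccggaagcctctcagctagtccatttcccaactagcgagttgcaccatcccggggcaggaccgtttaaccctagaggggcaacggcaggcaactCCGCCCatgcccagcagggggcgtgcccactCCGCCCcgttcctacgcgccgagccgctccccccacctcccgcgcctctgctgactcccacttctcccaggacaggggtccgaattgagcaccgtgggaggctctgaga
Syk, 13:52596741-52596931, plus strand: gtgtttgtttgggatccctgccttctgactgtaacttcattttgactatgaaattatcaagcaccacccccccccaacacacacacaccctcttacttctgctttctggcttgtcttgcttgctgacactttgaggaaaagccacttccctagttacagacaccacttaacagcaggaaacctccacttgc
Psd4, 2:24386366-24386665, plus strand: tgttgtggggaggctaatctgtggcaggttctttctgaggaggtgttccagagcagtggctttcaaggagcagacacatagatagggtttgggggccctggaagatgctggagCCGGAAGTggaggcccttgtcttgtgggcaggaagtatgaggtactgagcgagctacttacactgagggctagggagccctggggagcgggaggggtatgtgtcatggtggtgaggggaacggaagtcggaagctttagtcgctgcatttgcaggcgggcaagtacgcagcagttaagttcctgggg
Fam171a1, 2:3118132-3118431, plus strand: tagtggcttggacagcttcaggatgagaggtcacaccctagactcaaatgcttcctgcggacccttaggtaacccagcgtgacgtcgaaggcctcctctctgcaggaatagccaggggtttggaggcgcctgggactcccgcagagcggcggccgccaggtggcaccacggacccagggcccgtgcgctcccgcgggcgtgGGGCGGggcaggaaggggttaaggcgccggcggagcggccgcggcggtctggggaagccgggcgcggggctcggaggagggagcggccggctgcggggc

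Among the microRNAs, 16 members held a hairpin. The mature sequences of those named in the results are shown because they say which RNA each region can give rise to, with the seed (bases 2 to 8) in capitals. miR-132-3p and miR-212-3p, from neighbouring hairpins in the same region, share the seed AACAGUC. miR-142 is a microRNA of blood cells and microglia, and let-7i belongs to a family expressed in most mature tissues.
mmu-miR-142a-5p: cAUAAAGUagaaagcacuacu
mmu-miR-142a-3p: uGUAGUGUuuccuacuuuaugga
mmu-let-7i-5p: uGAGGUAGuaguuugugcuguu
mmu-miR-132-3p: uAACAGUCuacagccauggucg
mmu-miR-212-3p: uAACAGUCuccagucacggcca
mmu-miR-3092-3p: gAAUGGGGcuguuuccccucc

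The distal regions were less open than regions at gene ends and varied more between libraries. Their median percentile was 65.3, against 83.3 at gene ends and 48.2 for the 1709 distal regions open in 22 of 23 libraries. The authors' fold enrichment had a median of 7.54 over the members, against 10.4 at gene ends and 6.15 in the regions open in 22 libraries. The SD of the percentile over the 23 libraries had a median of 11.3 points in members and 6.09 points at gene ends. These SDs were not compared at equal openness, and 4812 gene-end regions but 1300 members had a mean percentile above 80. In bins of mean percentile, the median SE of the mean LPS difference was closer. It was 5.36 points in members and 5.16 at gene ends at 40 to 60, 3.95 and 3.64 at 60 to 80, and 2.15 and 1.68 above 80. The fit draws the SEs of equally open regions together. As the number of libraries with a peak depends on openness, the order of these classes follows in part from the rule.

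**Figure D1:**
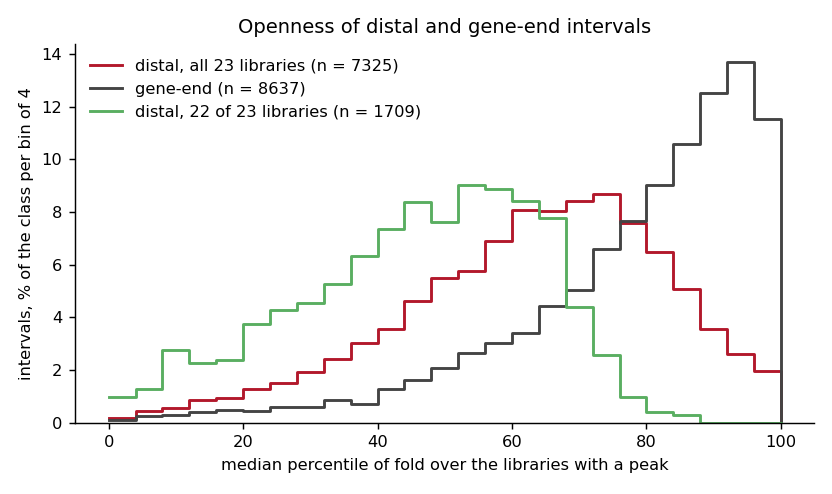
The x axis gives each interval's median percentile of fold over the libraries in which it had a peak, and the y axis the percentage of a class's intervals in bins of 4 percentile points. Lines stand for 7325 distal intervals open in all 23 libraries, 8637 gene-end intervals and 1709 distal intervals open in 22 of 23 libraries. The distal intervals open in every library lie between the other two classes, with a median of 65.3 against 83.3 and 48.2.

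In 2446 members (33.4%) the lowest of the 23 percentiles was above 50, and in 209 the highest was below 50. Only 13 members stayed above percentile 99 in all libraries. The most open was a 472 bp stretch at 3:5860352-5860823 with no coding gene end within 100 kb, whose fold enrichment ran from 42.1 to 58.3. Next came a 490 bp region at 11:109011646-109012135, nearest to Axin2, an inhibitor of Wnt signalling, with a fold of 42.9 to 54.8. The rest of the 10 most open lay nearest to Kctd16, Rpp21, Cr2, Cdk8, Zc3h7a and Filip1l or had no coding gene end within 100 kb. These 13 regions had a median length of 416 bp, against 654 bp over all members. None was called in the mean LPS difference, against 15.4% of all members, but this follows from the choice. Their percentiles all lay between 99 and 100, and the smallest called difference of any member was 2.28 points. No member was called in any MIA contrast. No list of sites with artefactual signal was used here to remove peaks. The part of such signal in these regions was not tested.

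Another set kept a middling openness with little spread. The 5 regions with the smallest SD among members with a mean percentile between 25 and 75 were nearest to Tlr6, Trim2, Top1mt, Bmp2k and Dnajc28. Tlr6 is a Toll-like receptor that pairs with TLR2 to sense bacterial lipopeptides. Its region at 5:64960752-64962008 lay at percentiles 69.4, 71.5, 76.3, 70.9 and 65.6 in MIA_LPS, at 65.6 to 77.2 with a median of 73.8 in CON_LPS, at 60.4 to 78.5 with a median of 71.7 in MIA_SAL, and at 78.3, 75.9, 74.9, 68.4 and 75.1 in CON_SAL. The groups overlapped, and LPS minus saline was −1.21 ± 2.70 points (SE). Since the region was chosen for a small SD over LPS and saline libraries together, a small difference follows from the choice.

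Summits were mostly in place. The position of the summit ranged over a median of 115 bp among the 23 libraries, and in 2904 members (39.6%) over less than 100 bp. The group median of the summit moved by 100 bp or more after LPS in both CON and MIA in 179 members (2.44%), in 147 of them the same way. Of these 147, 22 (15.0%) were also called for openness, against 15.4% of all members. Several peaks of a library could fall into a member: 2807 (38.3%) held more than 1 in at least 1 library, and the best of them gave the value.

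The question asked of LPS was whether these constantly open regions change in degree. Over both kinds of offspring, 593 members were more open after LPS and 536 less open (1129 of 7325, 15.4%; limma, Benjamini-Hochberg adjusted p under 0.05 over all 15962 regions open in every library). The members called higher were 8.10% and those called lower 7.32%, against a background of 4.96% higher and 4.82% lower over all regions tested. At gene ends 432 of 8637 (5.00%) were called; the difference between both shares was not tested. The called members differed by a median of 19.35 points when higher and −17.47 points when lower. All the same, no member that was called had left the lists of either treatment, since each had a peak in all 23 libraries.

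The count moved with the measure and with the libraries. With peaks ranked by −log10 p in place of fold, 868 members were called higher and 1002 lower. Among the libraries made from fewer than 20000 sorted cells (2 MIA_LPS, 4 CON_LPS, 4 MIA_SAL, 3 CON_SAL) 183 were called higher and 193 lower, and among those from 20000 or more (3, 3, 2 and 2 libraries) 837 and 379. Of the 1129 called members, 1128 differed in the same direction within the smaller class and 1121 within the larger; the same libraries had chosen them, so this is a description.

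Apart from each other, CON and MIA gave 398 and 300 called members. In MIA offspring 166 were more open after LPS and 134 less open, against 1.23% and 1.08% of all regions tested. In CON offspring 284 were more open and 114 less open, against 2.13% and 0.990%. No library is shared between these comparisons, but both used the same estimate of each region's spread, taken over all libraries. The sets of calls are thus not independent, and their overlap was not tested. Called higher in both were 109 members, which is 65.7% of the MIA calls and 38.4% of the CON calls, and called lower in both were 39 (29.1% and 34.2%). No member was called in opposite directions. Of the members called in MIA offspring, 165 of 166 higher and 131 of 134 lower ones differed the same way in CON offspring; of those called in CON, 283 of 284 and 114 of 114 did so in MIA. Across the 7325 members, the LPS differences in CON and in MIA had a Pearson correlation of 0.676, as a description. The count in MIA offspring fell to 191 without MIA_LPS library 5, and that in CON offspring to 254 without CON_SAL library 5. By −log10 p, 518 were higher and 358 lower in CON, where the share called higher was 59.1% against 71.4% by fold.

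**Figure D2:**
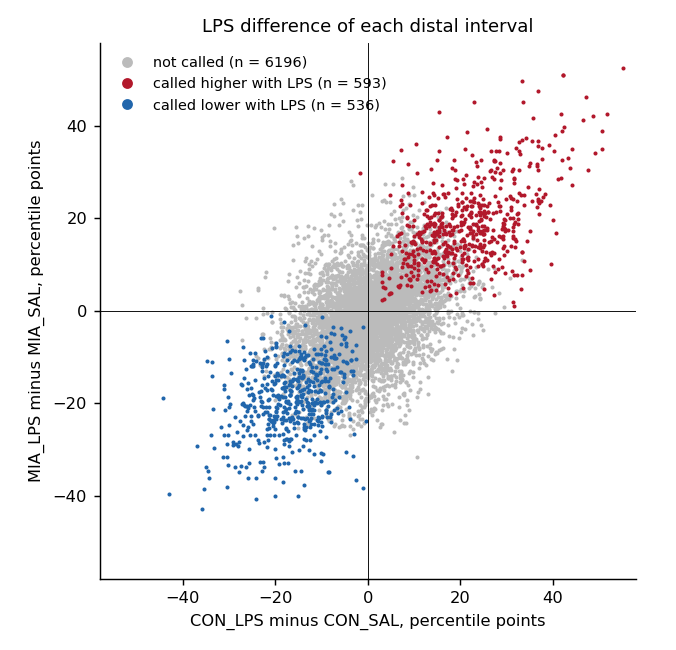
Each point is 1 of 7325 distal intervals; the x axis gives CON_LPS minus CON_SAL and the y axis MIA_LPS minus MIA_SAL, both in percentile points. Red points were called higher and blue points lower in the mean of both differences (593 and 536), grey points were not called, and called points lie almost all at the upper right and the lower left.

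LPS and saline libraries did not overlap in CON and did not overlap in MIA for 65 members that were higher and 17 that were lower, against 0.470% and 0.125% of all regions tested. All 82 were called.

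The share called depended on where a region lay and how open it was. It was 11.2% for members 1 to 5 kb from a gene end, 15.4% at 5 to 20 kb, 17.5% at 20 to 50 kb and 18.4% beyond 50 kb. Near gene ends calls were mostly higher (123 higher, 72 lower at 1 to 5 kb), while beyond 50 kb 107 were higher and 130 lower. Members overlapping a RefSeq start window of a coding gene were called in 5.24% (20 higher, 21 lower). For start windows of a long noncoding RNA the share was 8.83%, and for members with no start window 16.9%. By mean openness, the share was 5.03% below percentile 20, 14.9% at 20 to 40, 17.6% at 40 to 60, 17.1% at 60 to 80 and 9.62% above 80. Gene-end regions of the same bins were called in 7.92%, 7.02%, 8.96%, 6.08% and 3.45%. None of these differences in share was tested, and ranks near the ends of the scale can move in 1 direction only.

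**Figure D3:**
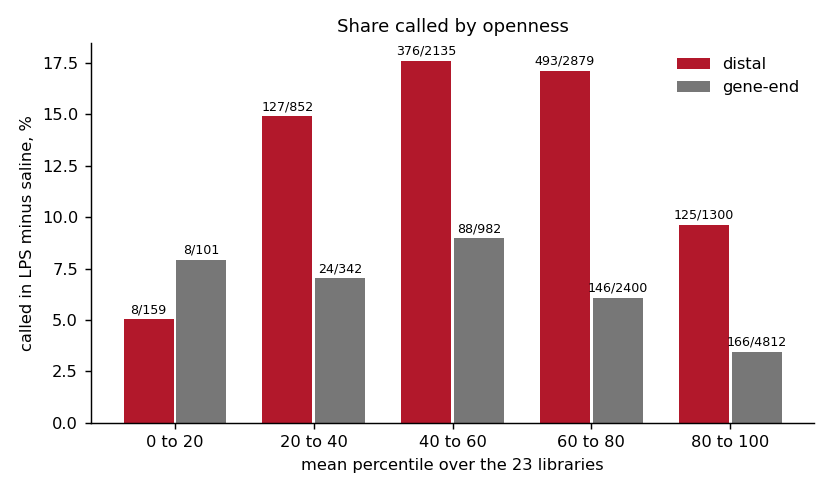
Bars give the percentage of intervals called different between LPS and saline (y axis, starting at 0) in bins of the mean percentile over the 23 libraries (x axis), for distal and gene-end intervals open in every library; the numbers above them are called intervals and intervals in the bin. Distal intervals between percentiles 20 and 80 were called in 14.9% to 17.6%, gene-end intervals in 6.08% to 8.96%.

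The region with the largest gain lay in Tmem63a, a mechanically gated ion channel, at 1:180944540-180945112. Its percentiles were 53.4, 63.2, 78.0, 69.3 and 53.9 in MIA_LPS, 45.4 to 73.0 with a median of 62.9 in CON_LPS, 2.01 to 42.1 with a median of 5.53 in MIA_SAL, and 6.17, 7.84, 3.74, 2.5 and 2.21 in CON_SAL. Every LPS library was above every saline library, and 10 of 11 saline libraries were below 8. The difference was 53.79 ± 4.83 points (SE; limma adjusted p = 3.57e-08).

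Sbno2, a transcriptional coregulator of the interleukin 10 response in macrophages, held a 1333 bp region at 10:80086505-80087837. It was at percentiles 75, 70.2, 72.7, 72.1 and 62.2 in MIA_LPS, 59.9 to 79.5 with a median of 68.5 in CON_LPS, 6.62 to 29.8 with a median of 18.7 in MIA_SAL, and 32.7, 42.9, 19.5, 18.4 and 15.4 in CON_SAL. No LPS library fell into the saline range. The difference was 46.60 ± 4.21 points (limma adjusted p = 3.57e-08). A region in Rnf216, a ubiquitin ligase, at 5:143043961-143044431 gained 47.16 ± 4.56 points, and a region in Bicral, a subunit of a chromatin remodelling complex, at 17:46879667-46880400 gained 42.23 ± 4.67 points. Others of the 10 largest gains, all with LPS and saline libraries apart in both kinds of offspring, were nearest to Mylk2 (46.72 points), Rfx8 (46.64), Plod1 (45.32), Rnf222 (44.76), Gpr157 (43.92) and Snx18 (42.11), a sorting nexin of endocytic membranes.

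The largest loss with groups apart was in Nav2, a cytoskeletal neuron navigator protein, at 7:48997872-48999038. Its percentiles were 13.9, 5.03, 10.6, 9.50 and 6.60 in MIA_LPS, 5.68 to 26.2 with a median of 8.87 in CON_LPS, 34.9 to 66.2 with a median of 55.2 in MIA_SAL, and 47.7, 57.3, 48.1, 47.5 and 43.4 in CON_SAL. All LPS libraries were below all saline libraries. The difference was −39.37 ± 4.38 points (limma adjusted p = 7.58e-07).

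Plcd1, a phospholipase C, held a 1327 bp region at 9:119074977-119076303 that also overlaps the RefSeq start window of the noncoding RNA Gm51697. It stood at 16.6, 41.1, 34.2, 7.50 and 16.9 in MIA_LPS, 9.89 to 22.7 with a median of 15.9 in CON_LPS, 46.9 to 61.3 with a median of 50.9 in MIA_SAL, and 56.7, 43.2, 54.2, 50.8 and 55.0 in CON_SAL. LPS and saline libraries did not overlap. The loss was −32.99 ± 4.14 points (limma adjusted p = 5.19e-06). A region in Ldlrad4, an inhibitor of TGF-beta signalling, at 18:67938491-67939981 differed by −34.64 ± 5.30 points. The other 7 losses of this rank were nearest to Gm35751 (−34.28 points), Gspt1 (−31.40), Myo1e (−31.24), Wscd1 (−29.69), Slc1a3 (−28.50), Lrig2 (−27.39) and Rab33a (−25.77). Gspt1 is a translation termination factor, Myo1e a class I myosin and Rab33a a GTPase of vesicle transport.

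**Figure D4:**
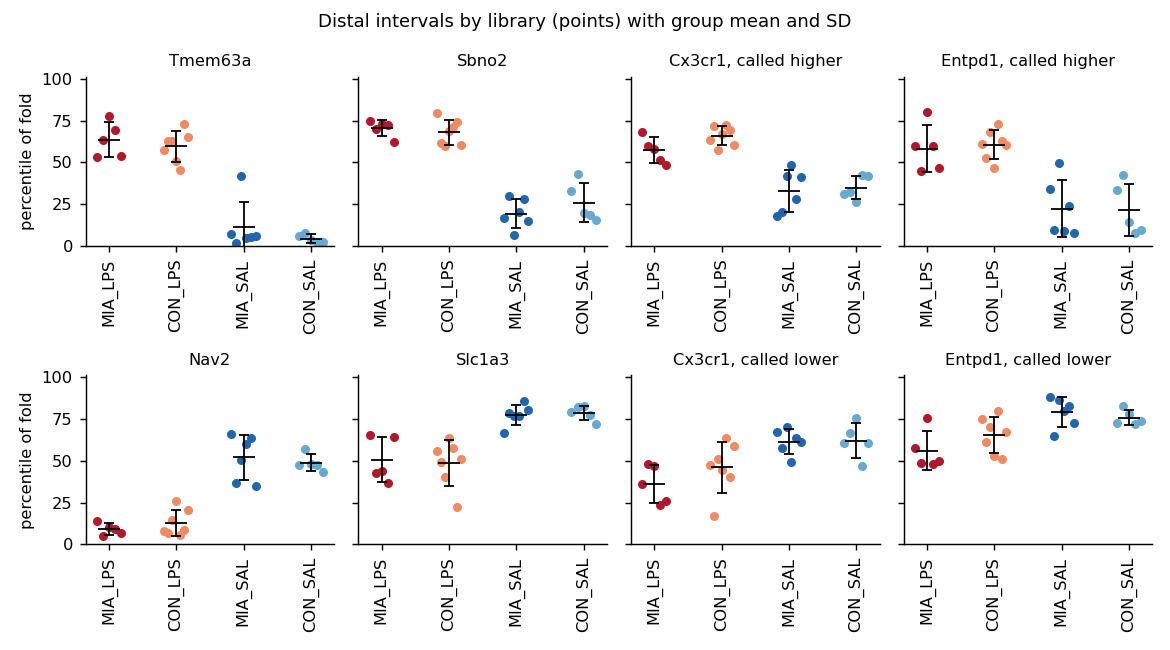
Points are the percentiles of fold (y axis) in single libraries of the 4 groups (x axis), black bars the group mean and SD (n = 5, 7, 6 and 5 from left to right). The upper row shows regions called higher after LPS, with Tmem63a between 45.4 and 78.0 in LPS libraries, and the lower row regions called lower; the panel "Cx3cr1, called lower" lies within 20 kb of Cx3cr1 and nearest to Xirp1.

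Gene lists are read against all regions tested, of which 4.96% were called higher and 4.82% lower, and against all members, with 8.10% and 7.32%. Of 42 members at homeostatic genes, 5 were called higher (11.9%) and 4 lower (9.52%), and 33 did not pass. Their median LPS difference was 0.37 points, against −0.12 over all regions tested. Cx3cr1, Entpd1, Bin1 and Ctss each had 1 region called higher and 1 called lower; these pairs were picked out after their values were seen. The remaining call was at Tgfbr1, a TGF-beta receptor, with 13.20 ± 3.58 points.

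Cx3cr1 encodes the receptor for the neuronal chemokine fractalkine and had 5 members. The one at 9:120042888-120043799, 4884 bp from the gene's end, was at 68.3, 60.1, 57.8, 51.6 and 48.5 in MIA_LPS, 57.6 to 72.2 with a median of 66.9 in CON_LPS, 17.7 to 48.3 with a median of 34.6 in MIA_SAL, and 31.3, 32.6, 26.5, 42.3 and 42 in CON_SAL. LPS libraries lay above saline libraries in both kinds of offspring. The gain was 27.69 ± 4.24 points (limma adjusted p = 6.77e-05). Another at 9:120034271-120034949, 7.94 kb away and nearest to Xirp1, was at 36.2, 48.3, 46.9, 23.3 and 26.1 in MIA_LPS, 16.9 to 63.8 with a median of 47.3 in CON_LPS, 49.4 to 70.1 with a median of 62.4 in MIA_SAL, and 60.4, 66.4, 75.8, 47.0 and 60.5 in CON_SAL. It was lower after LPS in MIA without overlap, and in CON the groups overlapped. This difference was −20.67 ± 5.00 points (limma adjusted p = 0.00692), and it was not called within either class of sorted cell number.

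Entpd1 encodes CD39, which breaks down extracellular ATP, and had 6 members. In its body, a region at 19:40639793-40640281 was at 59.6, 44.8, 79.9, 59.6 and 46.5 in MIA_LPS, 46.7 to 72.9 with a median of 61.2 in CON_LPS, 7.57 to 49.7 with a median of 16.8 in MIA_SAL, and 33.3, 42.4, 14.1, 7.79 and 9.86 in CON_SAL. The groups were apart in CON and overlapped in MIA, and the gain was 37.45 ± 5.70 points (limma adjusted p = 6.08e-05). Only 1628 bp away, the region at 19:40637582-40638164 was at 57.5, 48.9, 75.7, 47.8 and 49.7 in MIA_LPS, 50.9 to 79.7 with a median of 67.2 in CON_LPS, 64.6 to 88.0 with a median of 81.3 in MIA_SAL, and 72.8, 82.9, 77.7, 71.8 and 74.0 in CON_SAL. The groups overlapped in both kinds of offspring, with saline libraries mostly higher. This one differed by −16.83 ± 4.03 points (limma adjusted p = 0.00646). Within the libraries of fewer than 20000 cells the first was not called, and within the others the second was not.

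Bin1, a protein that bends membranes and a risk gene of Alzheimer's disease in humans, had a gain of 29.94 ± 5.18 points at 18:32358889-32359774 and a loss of −23.51 ± 4.62 points at 18:32389609-32390446. The first had group means of 76.0 in MIA_LPS and 73.0 in CON_LPS, against 43.3 in MIA_SAL and 45.8 in CON_SAL. At the second the means were 35.3 and 38.9 in MIA_LPS and CON_LPS, against 62.2 and 59.0 in MIA_SAL and CON_SAL. The Bin1 gain was not called in libraries of fewer than 20000 cells. Ctss, the lysosomal protease cathepsin S, had a gain of 30.64 ± 4.60 points at 3:95511804-95512286, nearest to Ctsk, and a loss of −12.45 ± 3.92 points at 3:95529712-95530253. The Ctss loss was near the threshold (limma adjusted p = 0.0402) and was not called when any of 13 single libraries was left out.

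Transcription factors of the myeloid lineage had 60 members, of which 5 were called higher and 2 lower, with a median difference of −0.38 points. Irf8, a lineage factor of microglia, had a region between genes at 8:120715964-120716593 with percentiles of 58.2, 60.5, 68.0, 63.1 and 55.7 in MIA_LPS, 52.1 to 82.5 with a median of 71.0 in CON_LPS, 15.8 to 67.3 with a median of 39.1 in MIA_SAL, and 51.8, 10.3, 59.7, 27.1 and 5.64 in CON_SAL. Saline libraries were widely spread and overlapped the LPS libraries in both kinds of offspring. The gain was 28.95 ± 6.03 points (limma adjusted p = 0.00200) and was not called in libraries of fewer than 20000 cells. Bach2, a repressor of inflammatory programmes, had 7 members, with gains of 19.35 ± 4.92 points at 4:32249780-32251575 and 20.15 ± 4.47 points at 4:32569853-32571073, and a loss of −18.45 ± 6.02 points in between at 4:32343162-32344084. That loss had an adjusted p of 0.0487 in limma and was not called when any of 17 single libraries was left out.

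Sensors and effectors of the LPS response were next. Of 43 members at NF-kB and acute inflammatory genes, 6 were called higher and 2 lower, with a median of 0.49 points. A region at 17:35209830-35210575, nearest to Lta and within 20 kb of Tnf, both encoding cytokines of the tumour necrosis factor family, was at 63.8, 67, 80.3, 72.2 and 76.5 in MIA_LPS, 68.5 to 86.0 with a median of 78.2 in CON_LPS, 15.6 to 67.3 with a median of 35.0 in MIA_SAL, and 37.4, 48.2, 28.9, 15.7 and 37.1 in CON_SAL. CON libraries were apart, and in MIA the highest saline library reached into the LPS range. The gain was 37.26 ± 5.16 points (limma adjusted p = 1.72e-05). Regions at the chemokine genes Cxcl16 (35.20 points, nearest to Zmynd15) and Ccl5 (23.03) were also called higher. So were regions at Socs3, a feedback inhibitor of cytokine signalling (21.11), Zc3h12a, an RNase that degrades inflammatory transcripts (8.90), and Bcl3, an IkB protein (5.81).

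Lower were a region at Slc7a11, a cystine transporter (−12.16 points), and 1 in Acod1, which makes itaconate in activated macrophages. The Acod1 region at 14:103051344-103051839 was at 5.25, 16.8, 65.3, 24.7 and 28.4 in MIA_LPS, 34.6 to 66.8 with a median of 52.9 in CON_LPS, 64.9 to 72.7 with a median of 67.6 in MIA_SAL, and 61.6, 70.8, 71.4, 56.5 and 66.4 in CON_SAL. MIA_LPS libraries were spread widely and 1 of them overlapped the saline range, as did some CON_LPS libraries. The loss was −27.61 ± 5.37 points (limma adjusted p = 0.00104). It was not called with peaks ranked by −log10 p (−11.14 points, limma adjusted p = 0.102) or in libraries of fewer than 20000 cells.

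At genes of Toll-like receptor 4 signalling, 2 of 17 members were called higher (11.8%, against 8.10% of all members) and 0 lower (median 0.67 points): Map3k8, a kinase upstream of ERK (9.32 points), and Irak2, an adaptor kinase (14.93 points, adjusted p = 0.0331 in limma, not called when any of 9 single libraries was left out). Among interferon-stimulated genes, 1 of 6 was called, near Bst2, which tethers enveloped viruses (8.02 points; list median 1.78), and that call was lost in 5 alternative settings, among them both classes of sorted cell number. At antigen presentation genes, 2 of 15 were called higher (median 6.30 points), near H2-DMa (6.30 points) and at 17:34234934-34235365 near Tap2 and H2-Ob (10.41 points). The Tap2 call was lost when any of 11 single libraries was left out.

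Immediate early genes, which respond within minutes to stimulation and also to tissue dissociation, had 42 members, 4 of them called higher and 1 lower (median 1.67 points). Fosb encodes a subunit of AP-1. Its region at 7:19308180-19308880 was at 59.3, 47.0, 51, 80.4 and 58.8 in MIA_LPS, 34.2 to 62.1 with a median of 53.3 in CON_LPS, 3.49 to 22.7 with a median of 7.09 in MIA_SAL, and 43.5, 4.11, 0.813, 13.9 and 18.7 in CON_SAL. LPS libraries were apart from saline libraries in MIA, and 1 saline library overlapped in CON. The gain was 41.55 ± 5.19 points (limma adjusted p = 4.74e-06). Regions at Btg2, an antiproliferative gene, gained 29.84 points, at the nuclear receptor gene Nr4a1 20.53 points and at Egr1 19.81 points (the last nearest to Reep2). The region near Klf6 differed by −13.80 points (limma adjusted p = 0.0472), and its call was lost when any of 16 single libraries was left out. All groups went through the same warm digestion per the labels' protocols; the part of dissociation in these values was not tested.

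Disease-associated microglia genes had 18 members, 2 higher and 2 lower (median −1.96 points). A region near Ctsd, a lysosomal protease, was at 15.9, 12.3, 55.6, 24.6 and 15.8 in MIA_LPS, 17.5 to 66.7 with a median of 27.9 in CON_LPS, 1.21 to 21.6 with a median of 10.4 in MIA_SAL, and 3.69, 10.9, 0.842, 2.13 and 4.48 in CON_SAL. The groups were apart in CON and overlapped in MIA. Its difference of 21.73 ± 5.42 points (limma adjusted p = 0.00871) was not called in libraries of fewer than 20000 cells. Near Ctsb, another lysosomal protease, 2 members 383 bp apart went opposite ways, with 17.35 ± 5.37 points at 14:63102907-63103413 and −14.30 ± 4.21 points at 14:63103797-63104676 (limma adjusted p = 0.0365 and 0.0267). The Ctsb loss was not called in 7 of 42 alternative settings. Among them were both classes of sorted cell number, log2 fold in place of the rank, and the fits without CON_SAL library 1 or 5.

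At complement and phagocytosis genes, 3 of 27 members were called lower (11.1%, against 7.32% of all members) and 0 higher (against 8.10%), with a median of −2.87 points. Those called lay near Marco, a scavenger receptor (−18.02 ± 4.60 points), Axl, a receptor for apoptotic cells (−12.23 ± 3.21 points), and Gas6, its ligand (−17.30 ± 4.80 points). The Axl region also counts among the disease-associated ones. Marco was not called within either class of sorted cell number.

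TGF-beta signalling, which maintains the microglial state, had 32 members, with 4 higher and 1 lower (median 0.95 points). Higher were regions at the integrin gene Itgav (16.25 points), at Nrros, which presents TGF-beta on microglia (15.79), near Eng, a co-receptor (14.33), and at Tgfbr1. The region at 18:75414057-75414617 within 20 kb of Smad7, the inhibitory SMAD, fell by 20.64 ± 3.73 points (limma adjusted p = 4.65e-04). Itgav was not called within either class of sorted cell number, and the Smad7 region not in libraries of fewer than 20000 cells. Among glucocorticoid targets, Klf9 gained 26.19 points and a region near Hif3a lost −17.73 points, out of 26 members (median 0.74 points). The Hif3a call was lost in 7 alternative settings, among them both classes of sorted cell number (−5.82 points in the larger), and the Klf9 call in libraries of fewer than 20000 cells.

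Genes of actin and migration had 51 members, 5 higher and 3 lower (median −0.97 points). Arhgap45, a GTPase-activating protein, had a 1488 bp region at 10:80032834-80034321 with 75, 37.9, 73.0, 63.2 and 41.3 in MIA_LPS, 31.5 to 69.8 with a median of 51.1 in CON_LPS, 4.65 to 30.9 with a median of 9.44 in MIA_SAL, and 15.4, 16.8, 10.1, 9.25 and 27.3 in CON_SAL. No LPS library fell to the level of the saline libraries. The gain was 39.32 ± 5.23 points (limma adjusted p = 1.06e-05). A region at the formin gene Fmnl1 gained 35.11 points, and regions at Elmo1 23.27, Dock8 19.61 (nearest to Ndufb4b) and Wipf1 14.60. Regions at Apbb1ip lost −18.16, Rhoh −15.42 and Dock2 −12.10 points (the last nearest to Insyn2b). The Apbb1ip call was lost within both classes of sorted cell number.

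Markers of other cells moved at 2 genes. Of 5 members at astrocyte genes, both called ones were in Slc1a3, the glutamate transporter GLAST, and both were lower. At 15:8680841-8681578 the percentiles were 65.7, 42.4, 43.9, 36.7 and 64.4 in MIA_LPS, 22.2 to 63.7 with a median of 51.2 in CON_LPS, 66.6 to 85.7 with a median of 77.6 in MIA_SAL, and 79.0, 82.1, 82.9, 77.5 and 72.2 in CON_SAL. All LPS libraries were below all saline libraries, with a difference of −28.50 ± 4.47 points (limma adjusted p = 8.43e-05). The other, at 15:8642198-8643048, differed by −23.47 ± 4.95 points. Over the list's 5 regions, the mean percentile of a library ran from 45.3 to 52 in MIA_LPS and from 41.4 to 55.2 in CON_LPS, against 50.0 to 65.9 in MIA_SAL and 52.5 to 63.6 in CON_SAL. Of 10 astrocyte genes, only Atp1b2, Slc1a2 and Slc1a3 had a member, and those at Atp1b2 and Slc1a2 were not called. Whether astrocyte DNA had a part in the Slc1a3 values was not tested.

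At genes of border-associated macrophages, 1 of 4 members was called higher, in Stab1, a scavenger receptor (29.46 ± 5.85 points, limma adjusted p = 0.00128), and it was not called in libraries of fewer than 20000 cells. The list's mean percentile per library was 43.1 to 68.8 in MIA_LPS, 46.7 to 66.5 in CON_LPS, 38.3 to 63.4 in MIA_SAL and 40.8 to 53.5 in CON_SAL. No member was called at markers of monocytes and neutrophils (3 members), neurons (3), oligodendrocyte lineage (5), endothelial cells (4) or lymphocytes (5). The part of other cells in these values was not tested. Among housekeeping genes, 1 of 8 members was called: a region 12677 bp from Actb, the gene of beta-actin. It was at 97.4, 95.9, 96.1, 98.3 and 90.5 in MIA_LPS, 90.2 to 98.1 with a median of 96.2 in CON_LPS, 61.3 to 87.0 with a median of 66.8 in MIA_SAL, and 49.2, 70.7, 66.3, 58.0 and 48.4 in CON_SAL. Every LPS library was above every saline library, and the gain was 30.79 ± 2.96 points (limma adjusted p = 7.25e-08).

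Some neighbouring regions were called in opposite directions. Members had a neighbour within 12.5 kb in 1485 of 7305 neighbouring pairs (20.3%), and the median gap was 56954 bp. In 391 of the 1485 close pairs at least 1 region was called, and in 34 both were: 11 pairs were both higher, 3 both lower, and 20 were opposite. Among genes with at least 3 members and a call, 54 of 346 had calls in both directions, and neither count was tested. A region can count for more than 1 gene, so these genes are not all separate cases. The opposite calls at Cx3cr1 and at Xirp1 are the same 2 regions (−20.67 and 27.69 points). Zmiz1, a coregulator of nuclear receptors and SMADs, had the most members (12, with 2 higher and 1 lower, from −30.98 to 23.59 points). Dnmt3a, a DNA methyltransferase, and Zfhx3, a homeodomain factor, had 10 each, with 1 higher and 2 lower at Dnmt3a and 2 lower at Zfhx3. Chd9, Cyfip1, Etv6, Itpr2, Rad51b, Tmcc3, Tns3 and Ubash3b had 9 each, and the 9 at Tmcc3 held no call. Only Dgkz, a diacylglycerol kinase (5 members), and Zfp523 (3 members) had 3 regions called higher and none lower.

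Prenatal immune activation gave no called member. The question was whether microglia of MIA offspring differ in these regions at rest, after LPS, or in their LPS response. Under limma, none of 7325 passed for MIA_SAL against CON_SAL (282 at an unadjusted p under 0.05), MIA_LPS against CON_LPS (367), the mean of both (328) or the LPS difference in MIA against that in CON (293). The background over all regions tested was 0% in each. The smallest adjusted p was 1.000, 0.829, 1.000 and 0.998 in these comparisons. The 95% interval of the mean MIA difference lay within 20 points of 0 in 95.3% of members, and that of the difference between LPS responses in 35.0%. The mean MIA differences ran from −16.50 to 20.91 points with a median size of 2.60, and the mean LPS differences from −41.32 to 53.79 points with a median size of 5.37.

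**Figure D5:**
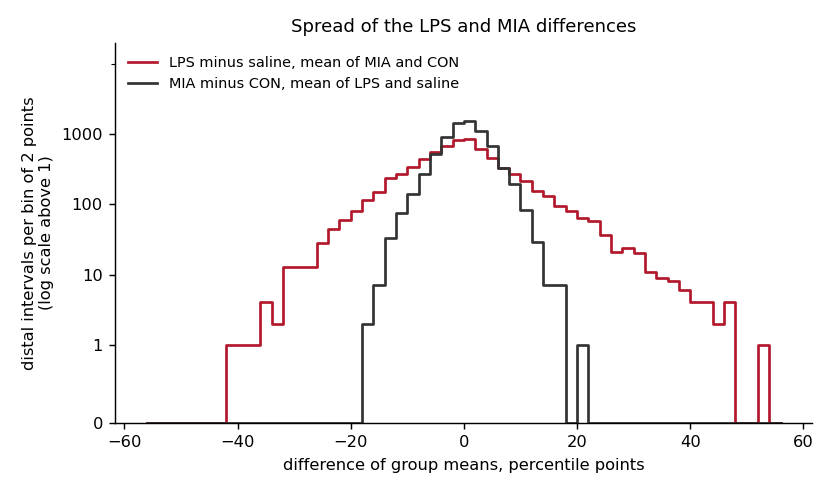
The x axis gives the difference of group means in percentile points and the y axis the number of distal intervals per bin of 2 points, on a log scale above 1. The red line is LPS minus saline, averaged over MIA and CON, and the black line MIA minus CON, averaged over LPS and saline; the red line reaches from −41.32 to 53.79 and the black from −16.50 to 20.91.

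Regions with the smallest p of their direction are given as values, since none passed. After LPS, in the body of Prkce, a protein kinase C gene, the region at 17:86283579-86284343 was at 12.9, 44.3, 45.4, 27.9 and 25.2 in MIA_LPS, against 45.5 to 68.2 with a median of 57 in CON_LPS. The groups were apart, the difference was −25.70 points, and the adjusted p was 0.829 in limma. After saline, Rbx1, a subunit of ubiquitin ligases, was nearest to a region at 86.7 to 95.8 with a median of 91.7 in MIA_SAL, against 73.5, 75.9, 83.0, 88.2 and 89.9 in CON_SAL. A region in Spatc1 was at 6.58 to 58.9 with a median of 50.1 in MIA_SAL, against 50.7, 72.0, 59.2, 70.3 and 74.8 in CON_SAL. These groups overlapped.

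Over both treatments, a region in Creg1, a glycoprotein of the endolysosome, was at 36.7, 60.3, 61.9, 50.6 and 59.7 in MIA_LPS against 19.1 to 57.3 with a median of 31.2 in CON_LPS, and at 6.58 to 54.4 with a median of 40.2 in MIA_SAL against 13.0, 16.1, 7.41, 30.3 and 9.60 in CON_SAL. The mean MIA difference was 20.91 points, with overlap after both treatments. A region in Camk1d differed by −1.99 points. For the difference of LPS responses, the extremes were a region in Atxn1, a transcriptional corepressor, at 31.31 points and 1 near Tle3, a Groucho corepressor, at −31.94 points. At Atxn1, LPS minus saline was 29.68 points in MIA and −1.63 points in CON, and at Tle3 −24.18 points in MIA and 7.76 points in CON. Neither passed (limma adjusted p = 0.998).

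The start windows shown at the outset belong to members that changed after LPS. Rasgrp2 at 19:6401168-6401884 gained 30.56 ± 5.30 points, with 61, 54.8, 45.5, 68.7 and 61.6 in MIA_LPS, 50.0 to 82.1 with a median of 58.3 in CON_LPS, 10.8 to 34.1 with a median of 25.2 in MIA_SAL, and 40.4, 54.0, 55, 20.5 and 12.5 in CON_SAL. It was apart in MIA and overlapped in CON. Lmna at 3:88502652-88503803 gained 30.01 ± 4.69 points, with 71.7, 64.4, 78.7, 71.3 and 68.1 in MIA_LPS, 54.2 to 77.8 with a median of 70.1 in CON_LPS, 28.8 to 54.8 with a median of 41.9 in MIA_SAL, and 14.5, 45.7, 58.5, 32.4 and 25.3 in CON_SAL. LPS libraries were again above saline libraries in MIA, with overlap in CON. The Syk region at 13:52596741-52597296 lost −30.48 ± 6.61 points, and its libraries read 3.53, 38.8, 40.7, 9.27 and 25.5 in MIA_LPS, 12.5 to 48.3 with a median of 27.2 in CON_LPS, 49.2 to 69.3 with a median of 55.7 in MIA_SAL, and 69.7, 66.4, 7.85, 68.4 and 65.8 in CON_SAL. In CON_SAL, 1 library was far below the other 4, which were all above the LPS libraries. Fam171a1 and Psd4 lost −28.77 ± 5.34 and −21.65 ± 5.28 points. All 5 were called (limma adjusted p from 8.29e-05 to 0.00735), and none of them was called in the libraries of fewer than 20000 cells alone.

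Short words of DNA were counted in the start windows, on both strands and with no test, after the values had been seen. PU.1 was searched as GAGGAAGT and other ETS factors as CCGGAAGT, which share their last letters. For AP-1 the word was TGANTCA, where N is any base, and for the cyclic AMP response element TGACGTCA. Interferon response was searched as GAAANNGAA, NF-kB as GGANTTTCC and C/EBP as TTNNGCAA. The E-box was read as CACGTG. For the GC box, which binds Sp1, the letters were GGGCGG. The AP-1 word was in 5 of 21 windows in members called higher (23.8%), 1 of 24 in members called lower (4.17%) and 43 of 923 in all members (4.66%). The share was 3.72% of 8257 windows in gene-end regions and 7.04% of all 21045 coding windows. The GC box word was in 68.4% of member windows, against 72.2% of windows in gene-end regions and 46.7% of all coding windows. The NF-kB word was in 1 of 21 windows called higher (4.76%) and none of 24 called lower. Of all member windows 2.71% held the PU.1 word (3.15% of all coding windows), 8.34% the ETS word (5.2%), 2.93% the cyclic AMP word (2.26%) and 5.42% the interferon word (8.10%). The NF-kB word was in 1.63% of member windows (1.29% of all coding windows), the C/EBP word in 8.13% (10.3%) and the E-box word in 9.86% (7.91%). In windows of gene-end regions the shares were 3.06% for PU.1, 10.5% for ETS, 3.95% for cyclic AMP and 6.33% for interferon. They were 1.15% for NF-kB, 7.15% for C/EBP and 11.6% for the E-box. In windows called higher, the counts of the other words among 21 were 0 for PU.1, 3 for ETS, 2 for cyclic AMP, 1 for interferon, 3 for C/EBP, 0 for the E-box and 12 for the GC box. Among 24 windows called lower they were 2, 1, 1, 2, 2, 2 and 14 in the same order. Of the 9 words searched the AP-1 word is described further, a choice made after the counts were seen. Several windows share a gene, and no count says that a factor binds there.

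The AP-1 words of the 5 members called higher are shown in capitals on the gene's strand. Up to 12 bases are given on each side, cropped to the start window. All of them lay within 71 bp of the median summit.
Creb5, 6:53573317-53573347: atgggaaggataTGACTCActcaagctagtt
Lmna, 3:88503303-88503325: cctggctgtcagTGACTCAgtgt
Osgin1, 8:119437038-119437068: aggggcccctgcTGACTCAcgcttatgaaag
Sema6b, 17:56133882-56133912: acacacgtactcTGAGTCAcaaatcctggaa
Sgms1, 19:32211049-32211079: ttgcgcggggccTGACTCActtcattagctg
The gains of these members were 11.64 points at Creb5, a CREB family factor, 30.01 at Lmna, 15.81 at Osgin1, an oxidative stress gene, 12.79 at Sema6b, a semaphorin, and 17.38 at Sgms1, a sphingomyelin synthase. In Sgms1 the group means were 73.8 in MIA_LPS and 73.0 in CON_LPS, against 63.8 in MIA_SAL and 48.3 in CON_SAL.

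Of the 16 members with a microRNA hairpin, 1 was called, where 15.4% of all members were. It holds the hairpin of miR-3092 inside Fndc3b at 3:27584414-27585050 and was at 77.9, 77.7, 87.8, 75.1 and 77.4 in MIA_LPS, 55.8 to 81.9 with a median of 70.4 in CON_LPS, 25.7 to 56.0 with a median of 42.8 in MIA_SAL, and 55.8, 67.6, 19.0, 60.0 and 39.2 in CON_SAL. It was apart in MIA and overlapped in CON, with a gain of 30.08 ± 4.97 points (limma adjusted p = 1.59e-04). The region of miR-142 was among the less open members, at 24.4, 16.3, 8.43, 28.9 and 12.5 in MIA_LPS, 7.69 to 31.8 with a median of 18.4 in CON_LPS, 2.38 to 23.8 with a median of 6.35 in MIA_SAL, and 20.4, 6.06, 0.240, 8.63 and 12.6 in CON_SAL. Its groups overlapped and its difference of 9.74 ± 4.12 points did not pass (limma adjusted p = 0.144). The let-7i region (8.59 ± 3.66 points, adjusted p = 0.148 in limma) and that of miR-132 and miR-212 (5.68 ± 4.14 points, adjusted p = 0.454 in limma) did not pass either.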

How the data were processed

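ATAC-seq peak lists of 23 libraries of sorted striatal microglia were used. The submitters' processing notes name MACS2, DiffBind, Bowtie2, cutadapt, SAMtools and Picard, with mm10 and GRCm38 as builds, and the sources used here give no versions or settings. The lists have no header. From their values, the deposited columns were read as the authors' fold enrichment of the summit over local background (a ratio), the −log10 p and −log10 q (deposited per peak, called per library), an integer score that the authors' caller derives from −log10 q and that was not used, and the summit's offset within the peak. The deposited lists hold no counts, so depth is unknown and no counting interval is given.

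Peaks sharing at least 1 bp were merged. A library's value in an interval is the percentile of its best peak's fold rank among 33900. Percentiles of all 15962 intervals open in every library were fitted with limma 3.58.1 (R 4.3.3, variance trend, empirical Bayes) over the 4 groups with 7 contrasts, and p-values were adjusted by Benjamini-Hochberg over all of them. LPS differences without a named kind of offspring are the mean of the CON and MIA contrasts. Other steps used Python 3.11.15 with numpy 2.4.6, pandas 2.3.3 and scipy 1.17.1. The fit was tested on simulated data. Gene ends came from RefSeq for GRCm38.p6.

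The members, the 20 lists (376 genes) and the rules were chosen with earlier results of these data known. Named were the 10 called members with the largest and the 10 with the lowest LPS difference whose LPS and saline libraries were apart in CON and in MIA, 1 per gene, and the smallest p per direction of each MIA contrast. Also named were the 10 with the highest lowest percentile, the 5 steadiest, the highest and lowest call of each list, and the genes with most members. Start windows, microRNAs, motif words, opposite pairs and further list calls were chosen after their values were seen. Replicate numbers of the titles did not pair the samples. Alternatives are given in the closing section; those by sorted cell number and without start windows were chosen after seeing the data. Results at some genes that these rules name are not reported here.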

Additional observations from a re-analysis of the deposited data

Results flagged for a closer look

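In 17 of 284 groups of 5 to 7 libraries, the highest or the lowest library of a named region stood far from the others of its group. The distance was more than Dixon's 95% critical value allows, and chance flags about 1 in 20 groups. Among regions called higher after LPS, Tmem63a was at percentile 42.1 in MIA_SAL library 3, where the next highest was 6.97. The Plod1 region was at 10.8 in CON_SAL library 1, against 25.1 or more in the others. Gpr157 reached 90.5 in CON_LPS library 5, with the next at 74.9. At Irak2, CON_SAL library 2 was at 46.6, above 32.5. The Ctsd region had 55.6 in MIA_LPS library 3, above 24.6, and 66.7 in CON_LPS library 1, above 38.1. At Bin1, CON_LPS library 4 was at 50.1, below 70.8. The region of miR-3092 was at 87.8 in MIA_LPS library 3, with the next at 77.9.

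Among those called lower, Wscd1 was at 35.4 in CON_LPS library 3, below 49.0, and Klf6 at 46.1 in CON_SAL library 4, below 70.2. Syk stood at 7.85 in CON_SAL library 3, below 65.8. Fam171a1 was at 12.4 in CON_LPS library 5, below 45.6, and at 90.9 in MIA_SAL library 6, above 79.3. Creg1, called higher after LPS (17.65 points, limma adjusted p = 0.0370), was at 6.58 in MIA_SAL library 3 (next 38.7). Among the uncalled, Trim2 at 81.0 in MIA_LPS library 2 (next 74.3), Top1mt at 84.4 in CON_SAL library 4 (next 71.8), and the region of miR-132 and miR-212 at 11.9 in MIA_LPS library 1 (next 10.0). No named region differed in its LPS difference between MIA and CON at an adjusted p under 0.05 in limma.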

How the results depend on the processing

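No count of 0 for the MIA contrasts changed under any alternative run. None of the 55 named LPS differences that were called turned its sign where it could be fitted. Named MIA differences were refitted as well, and their values under the alternatives are not given here. In CON, MIA and their mean, 398, 300 and 1129 members were called. Ranked by −log10 p, they were 876, 744 and 1870; with lists of 16950 peaks 33, 5 and 165 of 2818 members; with peaks of −log10 q of at least 5 117, 43 and 468 of 6212 (350 higher and 118 lower in the mean); and with a peak covering at least 50% of the interval 13, 4 and 57 of 1061. In MIA, log2 fold gave 460 (286 higher, 174 lower), libraries without a peak at 0 gave 467, and all deposited peaks 179 (148 higher, 31 lower of 8026). Restricted to libraries of fewer than 20000 sorted cells the counts were 50, 1 and 376, and with 20000 or more MIA had 96. Fewer libraries but the same members entered the fits by cell number. Without members that overlap a RefSeq start window, 377, 286 and 1058 of 6261 were called.

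Leaving out single libraries gave 254 to 425 calls in CON, 191 to 391 in MIA and 987 to 1211 in the mean, and 0 in each MIA contrast. Of the 55, 25 kept their call under each alternative in which they could be fitted (40 to 43 settings each, since stricter lists leave out many members), and 6 lost it without some single library. With the replicate number as a block, 332, 290 and 1142 were called; the numbers did not pair the samples, as the median correlation of same-numbered libraries' deviations was 0.0525 over 31 pairs and 5 of 23 libraries correlated best with their own number. The ID label holds another number, whose meaning is not given, with 14 values over the 23 libraries. Deviations of 6 pairs that share it across groups correlated at −0.0390 to 0.380 (median 0.227). Some libraries within CON_LPS, within MIA_SAL and within CON_SAL share it too, and their correlation is not given separately. As a block the ID number gave 410, 428 and 1306 calls and 0 in each MIA contrast, with an estimated correlation of 0.277 within blocks. With depth unknown, what it limits cannot be given.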
